A study of Mus musculus with 16 samples.

Results

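The lysyl oxidases and the enzymes and chaperone that process collagen were followed in the left atrium (LA) of old female mice. The 10 genes were Lox, Loxl1, Loxl2, Loxl3, Loxl4, Plod1, Plod2, Plod3, Pcolce and Serpinh1, taken by symbol out of 24958 named genes, and each passed the filter on low values that left 14261 genes to test. The 16 libraries came from C57BL6/J females aged 24 months, with 4 libraries in each of 4 groups. Control mice (Ctrl) kept their ovaries and received no angiotensin II, and AngII mice kept their ovaries and received angiotensin II during the last 4 weeks. Ovx mice were ovariectomized at 12 months and received no angiotensin II, and Ovx + AngII mice were ovariectomized at 12 months and received the same infusion. The paper reports sham surgery but no vehicle-filled pump, and cites earlier studies in which this made no difference in the heart. In these data the infusion by pump cannot be told apart from the presence of a pump. The questions were how AngII affected these genes in the LA of mice with and without ovaries, and whether ovariectomy changed their level or their response.

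Fibrillar collagen is made as procollagen in the endoplasmic reticulum (ER), where the lysyl hydroxylases encoded by Plod1, Plod2 and Plod3 modify lysines and the collagen chaperone HSP47, encoded by Serpinh1, holds the triple helix. Outside the cell, proteinases cut off the propeptides, and Pcolce encodes an enhancer of the removal of the C-terminal propeptide. Lox and its relatives Loxl1 to Loxl4 encode copper-dependent amine oxidases that convert lysines and hydroxylysines of collagen and elastin into aldehydes, from which the crosslinks of the fibres form. Crosslinking of collagen is known to stiffen the fibrotic myocardium.

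The value of 1 read in each library, read from the steps between low values, implied 15960499 to 25099615 reads assigned to genes per library. This number is not the sequencing depth, which the study reported as higher. Column totals of normalised read counts (reads per gene divided by a size factor for each library) were 19577700 to 21498916 in mice with ovaries and 17585151 to 18971820 in ovariectomized mice. These 2 sides of the table lay on different scales, by a ratio of 1.12, so values were compared as deposited within a side and after median-of-ratios rescaling between the sides. The 8 genes listed as atrial cardiomyocyte markers summed to 1540470 to 2320640 per library, against 680 to 1586 for 4 ventricular markers. Of the 8, Myh6, Tnnt2, Actc1 and Ttn are not particular to atrial cardiomyocytes, so these sums are not like for like. In the deposited table, the heading of the AngII group begins above the column of Ctrl replicate 4, while the sample's own label calls it a control. This library, kept here as the library labelled Ctrl replicate 4, also stood apart from the other 15, with a mean correlation with its group of 0.945 against 0.963 to 0.980. Its macrophage markers summed to 43222 against 15044 to 20651 in the other controls, and its fibroblast markers to 85056 against 123396 to 146130. Both sums lay outside those of the AngII libraries (18030 to 27034 and 107692 to 147608). Its myofibroblast sum (9789, other controls 4917 to 6228) lay within theirs (6806 to 12184). Its endothelial sum (58828, other controls 35846 to 42619) lay above theirs (50004 to 56890). Its smooth muscle and pericyte sum (14511.5) lay below theirs (15733 to 19855). For 6 of the 10 genes (not Loxl1, Loxl4, Plod3 and Pcolce) this library lay within the AngII range. It was the highest control library for 6 of the 10 genes (60% of them, against 32.8% of all genes tested). The counts of the 10 genes past the test in comparisons with Ctrl mice are therefore given with and without it, and the part of these differences between libraries in the results was not tested.

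Among themselves the 10 genes covered a wide range of levels. Per kilobase of exon and after rescaling, the mean level in Ctrl mice was 2620 for Serpinh1, 808 for Loxl1, 646 for Pcolce, 358 for Plod1, 296 for Plod3, 166 for Plod2, 111 for Loxl2, 59.1 for Loxl3, 55.0 for Lox and 22.1 for Loxl4. Loxl1 was thus the most abundant lysyl oxidase RNA and Loxl4 the least abundant. The ranges of the 4 Ctrl libraries overlapped for Loxl1 and Pcolce, for Plod1 and Plod3, for Plod2 and Loxl2, for Loxl2, Loxl3 and Lox, and for Lox and Loxl4, so these neighbours were not separated beyond their spread. Without Ctrl replicate 4 the range of Loxl2 (73.4 to 98.5) lay apart from those of Plod2 (156.0 to 173), Loxl3 (37.4 to 59.1) and Lox (21.8 to 57.3), the other overlaps named were still present, and the mean of Lox was 35.7. In Ovx + AngII mice the means were 107 for Lox, 97.2 for Loxl3 and 20.9 for Loxl4, and the ranges of Lox and Loxl4 were apart. Spread within groups also differed, the coefficient of variation of the 4 Ctrl libraries being 75.1% for Lox (53.0% without Ctrl replicate 4) and 4.33% for Plod2.

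Promoter sequences of 300 bases (250 before and 50 after the start of the gene) were available from RefSeq (GRCm38.p6) for Plod1, Plod3, Pcolce, Serpinh1 and Loxl4, 5 of the 10 genes. Those of Pcolce, Serpinh1 and Loxl4 are shown because Pcolce passed the test with AngII in both backgrounds, Serpinh1 in ovariectomized mice and Loxl4 in neither. They lie at chr5:137611355-137611654, chr7:99353190-99353489 and chr19:42612757-42613056, all on the minus strand, and the Pcolce window lies inside the longer gene span that GENCODE gives. Capitals mark the GC box GGGCGG, the binding motif of Sp1-type factors, and in Serpinh1 also the Smad motif CAGACA, each read on either strand.
Pcolce: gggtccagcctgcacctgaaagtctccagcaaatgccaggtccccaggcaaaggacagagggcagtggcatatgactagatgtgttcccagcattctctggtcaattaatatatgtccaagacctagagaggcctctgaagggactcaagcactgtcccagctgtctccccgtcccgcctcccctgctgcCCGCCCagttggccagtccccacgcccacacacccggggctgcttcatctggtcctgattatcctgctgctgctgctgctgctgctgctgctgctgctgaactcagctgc
Serpinh1: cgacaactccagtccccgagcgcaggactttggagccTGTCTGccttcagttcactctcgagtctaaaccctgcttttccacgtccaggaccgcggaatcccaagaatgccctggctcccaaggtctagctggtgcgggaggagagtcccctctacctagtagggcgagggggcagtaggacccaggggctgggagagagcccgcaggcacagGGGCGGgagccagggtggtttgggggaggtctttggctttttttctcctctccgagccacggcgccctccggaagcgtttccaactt
Loxl4: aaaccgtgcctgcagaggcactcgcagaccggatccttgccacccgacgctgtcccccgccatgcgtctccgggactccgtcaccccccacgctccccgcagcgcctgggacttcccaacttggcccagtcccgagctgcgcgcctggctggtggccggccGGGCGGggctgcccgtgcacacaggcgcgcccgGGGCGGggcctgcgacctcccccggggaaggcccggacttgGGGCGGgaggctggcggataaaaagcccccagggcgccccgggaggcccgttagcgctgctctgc
The GC box was found in 4 of the 5 promoters, those shown and Plod1, against 35.7% of 32851 promoters of the same length. The motif TATAAA was found in Plod1 (13.6% of all promoters hold it) and CAGACA in Serpinh1 (21.0%), while Plod3 held none of the motifs searched. The AP-1 motif TGACTCA (its reverse complement is TGAGTCA, 5.20% of all promoters), the TEAD motif GGAATG (14.7%) and the E-box CACGTG (7.15%) were in none of the 5 windows. The 5 promoters held 53.3% to 75% G and C bases, against a median of 52.7%. No matches overlapped in these windows, and a match is only a description of the sequence.

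In mice with ovaries, AngII raised Loxl1 and Pcolce. Both passed the test (limma on log2 values with 1 added, adjusted p of at most 0.05 over all genes tested) and neither doubled, and these 2 of 10 genes compare with 1.68% of all genes called higher. All 10 fold changes lay above 0, with a median of 0.44 on the log2 scale against -0.01 for all genes tested. Without Ctrl replicate 4, Lox, Loxl2 and Loxl3 also passed, making 5 of 10 genes against 5.39% of all genes. A change in the number of cells of a type and a change in RNA per cell cannot be told apart in whole LA tissue. This holds for every difference below. The groups did not overlap, with AngII higher, for Loxl1 and Pcolce (3.86% of all genes), and without Ctrl replicate 4 also for Loxl2 and Loxl3 (9.83% of all genes).

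In ovariectomized mice, AngII raised 8 of the 10 genes, against 5.83% of all genes called higher. These were Lox, Loxl1, Loxl2, Loxl3, Plod1, Plod2, Pcolce and Serpinh1, and the median of the 10 log2 fold changes was 0.54 against -0.01 for all genes tested. Lox and Loxl2 also more than doubled, which was so for 1.30% of all genes. All 4 Ovx + AngII libraries lay above all 4 Ovx libraries for 9 of the 10 genes, with Loxl4 as the exception, against 11.6% of all genes. Averaged over both backgrounds, 7 of the 10 genes passed the test for a rise (9.20% of all genes), with Lox and Loxl2 again past the doubling (1.07%). Plod3 and Serpinh1 joined them without Ctrl replicate 4, for 9 of 10 genes against 13.6% of all genes.

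**Figure D1:**
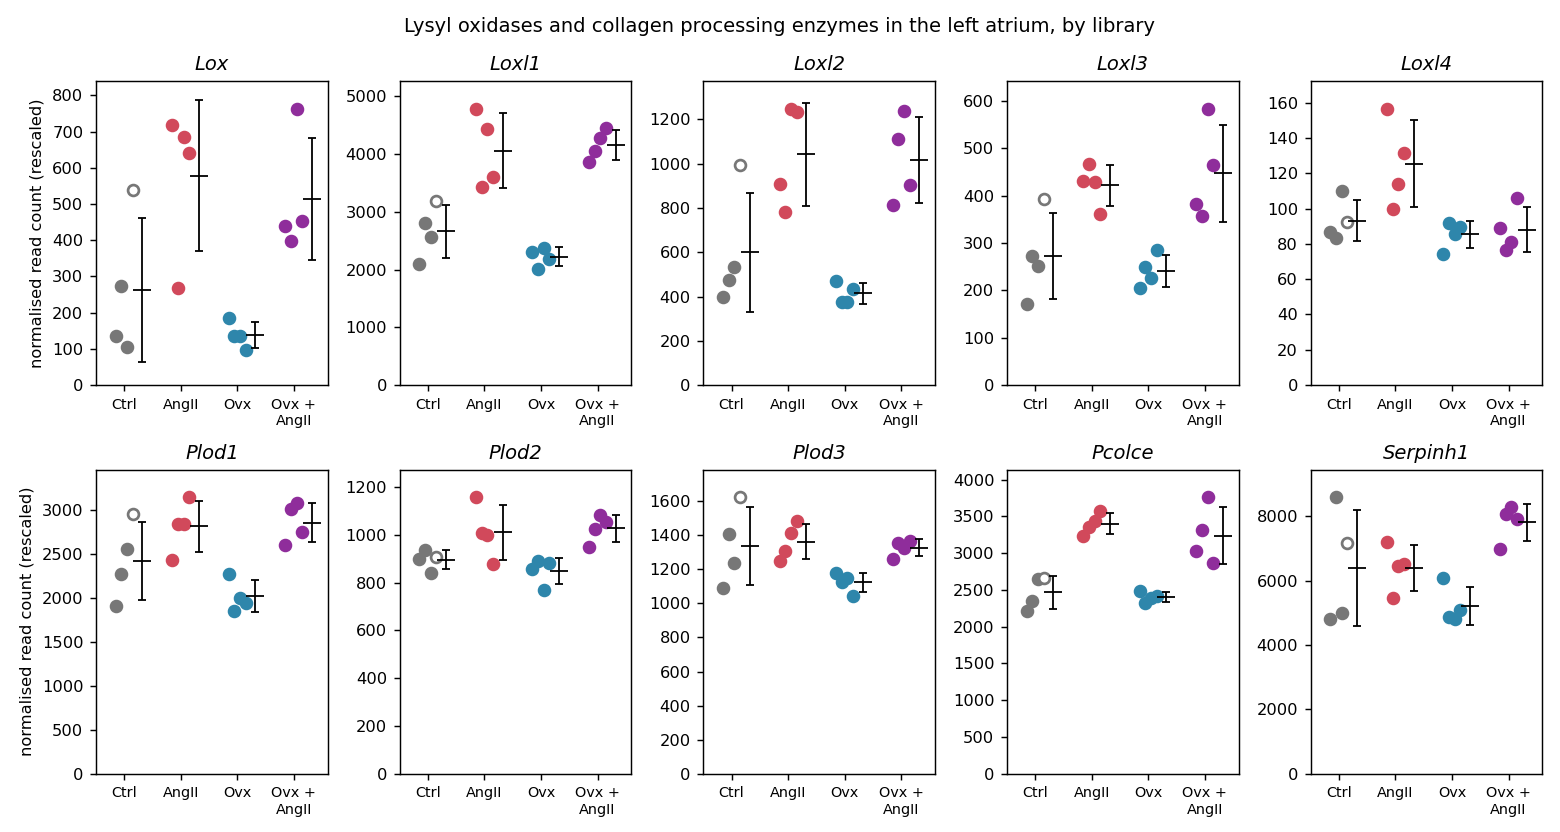
Normalised read counts after median-of-ratios rescaling (y axis, from 0) of each of the 10 genes in every library, by group (x axis). Points are libraries, the open point is Ctrl replicate 4, and black marks give the mean and SD of the 4 libraries. Loxl1 and Pcolce lie higher in all AngII libraries than in all untreated libraries of the same background, and Loxl4 stays between 74.6 and 106 in the Ovx and Ovx + AngII libraries.

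Lox encodes the founding member of the family and had the largest fold changes of the 10 genes. It lies on the minus strand at chr18:52516067-52529867 (GRCm38). Its normalised read counts were 142, 291, 111 and 568 in the Ctrl libraries and 766, 285, 727 and 681 in the AngII libraries. These ranges overlapped, since Ctrl replicate 4 reached 568 and AngII replicate 2 only 285. The log2 fold change was 1.34 ± 0.43 (SE, n = 4 and 4, adjusted p = 0.0994), a fold of 2.53 that did not pass the test. This SE draws on the spread within groups over all 16 libraries. A fit of these 8 libraries alone gave an adjusted p of 0.316. In the fit of all groups the log2 fold change was 1.78 ± 0.36 (adjusted p = 0.00697) without Ctrl replicate 4. Without AngII replicate 2 it was 1.67 (adjusted p = 0.0495).

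In ovariectomized mice the values of Lox were 176, 127, 128 and 90.2 in the Ovx libraries and 413, 374, 719 and 427 in the Ovx + AngII libraries. The groups were well apart, and Ovx + AngII replicate 3 stood above the other treated libraries. Lox rose by a log2 fold change of 1.87 ± 0.43 (adjusted p = 0.0117), a fold of 3.66 with a 95% interval of 1.96 to 6.83. The mean of both responses was 1.60 ± 0.30 (adjusted p = 0.00179), which passed whichever library was left out.

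Loxl1, which encodes the lysyl oxidase best known for its part in elastic fibre upkeep, had the smallest standard error among the oxidases. It lies at chr9:58287738-58313186 on the minus strand. The Ctrl libraries gave 2212, 2982, 2721 and 3362 normalised read counts, and the AngII libraries 5097, 3628, 4716 and 3812. The lowest AngII library stood above the highest Ctrl library, and the log2 fold change was 0.62 ± 0.12 (adjusted p = 0.0158). It no longer passed when Ctrl replicate 1 was left out (adjusted p = 0.0546), without AngII replicate 3 (adjusted p = 0.0616) and in a fit of these 8 libraries alone (adjusted p = 0.174). In ovariectomized mice Loxl1 went from 2180.2, 1896, 2245 and 2061 to 3640.1, 3816, 4021 and 4202. This rise of 0.90 ± 0.12 (log2, adjusted p = 0.000473) held with every library left out in turn.

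Loxl2 encodes a family member with scavenger receptor domains that has been linked to cardiac fibrosis in mice. It lies at chr14:69609068-69695834 on the plus strand. The values were 419.5, 505, 566 and 1048 in Ctrl and 967, 830.1, 1328 and 1306 in AngII libraries. Only Ctrl replicate 4 reached into the AngII range. The log2 fold change of 0.87 ± 0.23 (adjusted p = 0.0514) lay at the threshold, and it was 1.14 ± 0.17 (adjusted p = 0.00164) without Ctrl replicate 4 and 0.99 (adjusted p = 0.0446) without AngII replicate 2. In ovariectomized mice the values were 445, 354, 355 and 411 in Ovx and 768, 1048, 1166 and 852 in Ovx + AngII libraries, with no overlap. Loxl2 rose there by 1.28 ± 0.23 (log2, adjusted p = 0.00307), a fold of 2.42. Without Ctrl replicate 4, Lox and Loxl2 both passed the test and the doubling in mice with ovaries too, which was so for 0.968% of all genes.

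Loxl3, another oxidase with scavenger receptor domains, lies at chr6:83034173-83052562 on the plus strand and shares exon bases with Htra2 on the opposite strand. Its values were 182, 289, 267 and 413 in Ctrl and 459, 494, 457 and 384 in AngII libraries. Ctrl replicate 4 lay above AngII replicate 4, and the other libraries did not overlap. The log2 fold change of 0.69 ± 0.20 (adjusted p = 0.0752) became 0.89 ± 0.18 (adjusted p = 0.00706) without Ctrl replicate 4. The ovariectomized groups went from 193, 235, 213 and 269 to 361, 336, 550.0 and 438 without overlap. This rise of 0.87 ± 0.20 (log2, adjusted p = 0.0132) no longer passed without Ovx + AngII replicate 3 (0.73, adjusted p = 0.0559).

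Loxl4 was the oxidase with no call in any comparison. It is the fourth of the lysyl oxidase relatives and lies at chr19:42593982-42612813 on the minus strand. The Ctrl libraries gave 92.0, 88.6, 117 and 97.4 and the AngII libraries 167, 106, 121 and 139. The ranges overlapped between AngII replicate 2 and Ctrl replicate 3, and the log2 fold change was 0.42 ± 0.16 (adjusted p = 0.173). The ovariectomized mice gave 70.5, 86.7, 80.9 and 84.4 untreated and 83.8, 72.0, 76.4 and 99.9 with AngII. These groups lay over each other, and the log2 fold change of 0.03 had a 95% interval of -0.31 to 0.38. Loxl4 was also the gene least like the others in its pattern over the 16 libraries, with Pearson correlations of at most 0.45 with each of the other genes on the log2 scale, against 0.91 between Lox and Loxl2. These correlations share libraries and group differences and are a description only.

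The fold changes of the lysyl hydroxylases were smaller than those of Lox, Loxl1, Loxl2 and Loxl3, and Plod1 and Plod2 passed the test in ovariectomized mice. Plod1 encodes lysyl hydroxylase 1, which acts on lysines of the helical domain, and lies at chr4:147909753-147936767 on the minus strand. Its values were 2014, 2414, 2718 and 3109 in Ctrl and 2588, 3010.2, 3016 and 3330 in AngII libraries. The ranges overlapped widely, and the log2 fold change of 0.23 ± 0.11 (adjusted p = 0.291) did not pass with or without Ctrl replicate 4 (0.33, adjusted p = 0.0582). In ovariectomized mice the values went from 2148, 1751, 1887 and 1825 to 2448, 2829.6, 2896 and 2585. This rise of 0.50 ± 0.11 (log2, adjusted p = 0.0119) held with each library left out.

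Plod2 encodes lysyl hydroxylase 2, whose long form acts on the telopeptides and so sets the type of crosslink formed. It lies at chr9:92542223-92608428 on the plus strand. The Ctrl libraries gave 951, 993, 894 and 956, the AngII libraries 1231, 1064, 1064 and 929, and the log2 fold change was 0.17 ± 0.08 (adjusted p = 0.272). AngII replicate 4 lay within the Ctrl range. The Ovx libraries gave 809, 842, 726 and 830.4 and the Ovx + AngII libraries 894, 965, 1018 and 993. The groups did not overlap, and the rise of 0.27 ± 0.08 (log2, adjusted p = 0.0435) was small. Its call was lost in 10 of 16 cases when 1 library was left out, with adjusted p of 0.0505 without Ctrl replicate 1, 0.0545 and 0.0550 without AngII replicates 2 and 3, 0.0766, 0.0661, 0.137 and 0.0708 without Ovx replicates 1 to 4, and 0.0747, 0.127 and 0.10 without Ovx + AngII replicates 2 to 4.

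Plod3 encodes lysyl hydroxylase 3, which also glycosylates hydroxylysine. It lies at chr5:136987019-136996648 on the plus strand and shares exon bases with Znhit1 on the opposite strand. Ctrl values of 1152, 1493, 1315 and 1710.2 enclosed AngII values of 1331, 1383, 1503 and 1572. The log2 fold change was 0.04, with a 95% interval of -0.16 to 0.25. In ovariectomized mice, 1113, 1063, 1084 and 986 stood below 1189, 1277, 1248 and 1291 in every library. The difference of 0.24 ± 0.10 (log2, adjusted p = 0.135) did not pass in the fit of all libraries, and it did in a fit of these 8 libraries alone (adjusted p = 0.0193).

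Pcolce was the gene that passed the test in both backgrounds with each library left out. Its product speeds the cutting of the C-terminal propeptide by Bmp1-type proteinases, and the gene lies at chr5:137605103-137613784 on the minus strand, where it shares exon bases with Fbxo24 on the same strand. Its normalised read counts were 2340.1, 2492, 2815 and 2813 in Ctrl and 3437, 3554, 3658 and 3788 in AngII libraries. All AngII libraries stood clear of all Ctrl libraries, including Ctrl replicate 4. Pcolce rose by a log2 fold change of 0.47 ± 0.08 (adjusted p = 0.00832), a fold of 1.38 with a 95% interval of 1.23 to 1.56. The call held with each of the 16 libraries left out, but a fit of these 8 libraries alone gave an adjusted p of 0.0867. In ovariectomized mice the values were 2350.4, 2188, 2252 and 2285 untreated and 2853, 3119.8, 3539.7 and 2697 with AngII. The rise of 0.42 ± 0.08 (log2, adjusted p = 0.00461) also held with each library left out.

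Serpinh1, encoding HSP47, was the most abundant of the 10 RNAs per kilobase. It lies at chr7:99345376-99353239 on the minus strand. The Ctrl libraries gave 5096, 9124, 5319 and 7572, a range that enclosed the AngII libraries at 7665, 5771, 6852 and 6916. Here Ctrl replicates 2 and 4 were the high libraries. The log2 fold change of 0.04 had a 95% interval of -0.28 to 0.36. In ovariectomized mice the untreated libraries gave 5767, 4596, 4541 and 4808 and the treated libraries 6587, 7614, 7799 and 7473. These did not overlap, and Serpinh1 rose by 0.58 ± 0.15 (log2, adjusted p = 0.0238). The adjusted p went past the threshold without Ovx replicates 2, 3 and 4 (0.0706, 0.0712 and 0.0597) and without Ovx + AngII replicates 2, 3 and 4 (0.0506, 0.0754 and 0.0555).

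**Figure D2:**
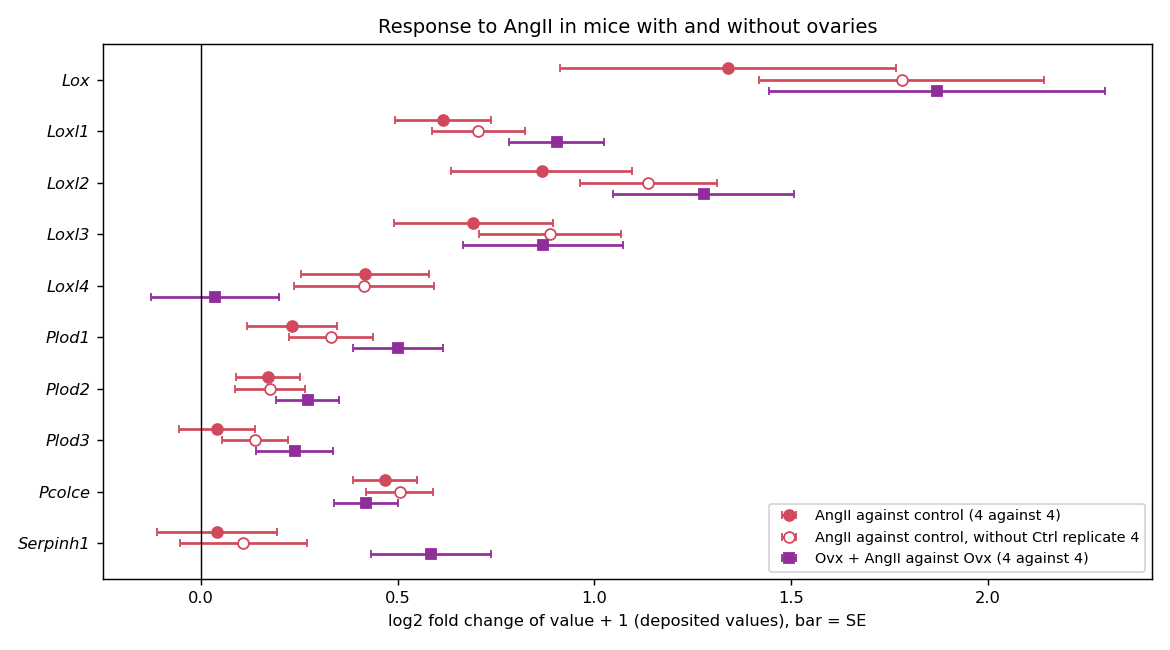
Log2 fold change after AngII of each gene (x axis, deposited values with 1 added) in mice with ovaries, with and without Ctrl replicate 4, and in ovariectomized mice. Bars are the standard errors of the limma fit. The open points of Lox, Loxl2 and Loxl3, without Ctrl replicate 4, lie closer to the ovariectomized mice than the filled ones (1.78 against 1.34 for Lox), and Serpinh1 is at 0.04 in one background and 0.58 in the other.

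Whether ovariectomy changed the response to AngII was asked by the difference between the responses of both backgrounds. None of the 10 genes passed (limma, 0% of all genes called higher). Of the 10, 1 gene, Serpinh1, had an unadjusted p under 0.05, as had 826 of the 14261 genes tested. The estimate for Serpinh1 was 0.54 ± 0.22 on the log2 scale, higher in ovariectomized mice, with a 95% interval of 0.09 to 1.0 and an adjusted p of 0.839. The difference was 0.53 ± 0.60 for Lox and 0.41 ± 0.32 for Loxl2, and it was 0.09 and 0.14 without Ctrl replicate 4. Loxl4 was the only oxidase with a difference below 0, at -0.38 ± 0.23 (95% interval -0.87 to 0.10), joined by Loxl3 (-0.02) without Ctrl replicate 4. A gene past the test in ovariectomized mice and not in mice with ovaries was therefore not shown to respond differently in them.

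Ovariectomy without AngII left the 10 genes without a call on the rescaled values. None passed the test (limma, 0% of all genes called lower). Plod1 and Plod3, 2 of the 10 genes, had an unadjusted p under 0.05, as had 1234 of the 14261 genes tested. All 10 estimates lay below 0, from -0.66 for Lox to -0.03 for Pcolce, with a median of -0.24 against -0.01 for all genes tested. Without Ctrl replicate 4 they ranged from -0.22 to 0.07, with 8 below 0 and none at an unadjusted p under 0.05. The Ovx and Ctrl libraries overlapped for every gene, while 2.24% of all genes were lower in Ovx mice without overlap. On the deposited values, which carry the shift between the sides, Loxl1 (-0.41, adjusted p = 0.0442), Plod1 (-0.42, adjusted p = 0.0366) and Plod3 (-0.40, adjusted p = 0.0253) passed, 3 of 10 genes against 9.65% of all genes. No marker of another cell type passed in this comparison, but some lists lay to one side. Of the macrophage markers 8 of 8 lay below 0 with a median of -0.44 on the log2 scale, or -0.12 without Ctrl replicate 4. Myofibroblast markers lay below 0 for 6 of 8 with a median of -0.31 (8 of 8 and -0.16 without that library). Below 0 were also 6 of 8 endothelial markers (median -0.12, or -0.05 without it) and 4 of 5 erythroid markers (-0.98, or -0.18). Fibroblast markers lay above 0 for 7 of 8 with a median of 0.12 (5 of 8 and 0.04 without it). Of the adipocyte markers tested 4 of 4 lay above 0 with a median of 1.19 (1.01 without that library), and of the epicardial and mesothelial markers 6 of 6 with a median of 0.27 (0.18). Their part in the values of the 10 genes was not tested.

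Among AngII-treated mice, ovariectomized and intact groups also gave no call for these genes. None passed (limma, 0% of all genes called lower). An unadjusted p under 0.05 was found for 879 of the 14261 genes tested, and among the 10 genes for Loxl4 alone. Its rescaled values were 157, 99.9, 114 and 132 in AngII and 89.0, 76.5, 81.1 and 106 in Ovx + AngII libraries. Only the highest Ovx + AngII library reached into the AngII range, and the log2 difference was -0.50 ± 0.16 (95% interval -0.84 to -0.15, adjusted p = 0.682). Serpinh1 stood 0.29 ± 0.15 higher, with a 95% interval of -0.03 to 0.61. The remaining 8 estimates lay between -0.12 and 0.06. The groups overlapped for each of the 10 genes, while 2.38% of all genes were lower in Ovx + AngII mice without overlap.

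**Figure D3:**
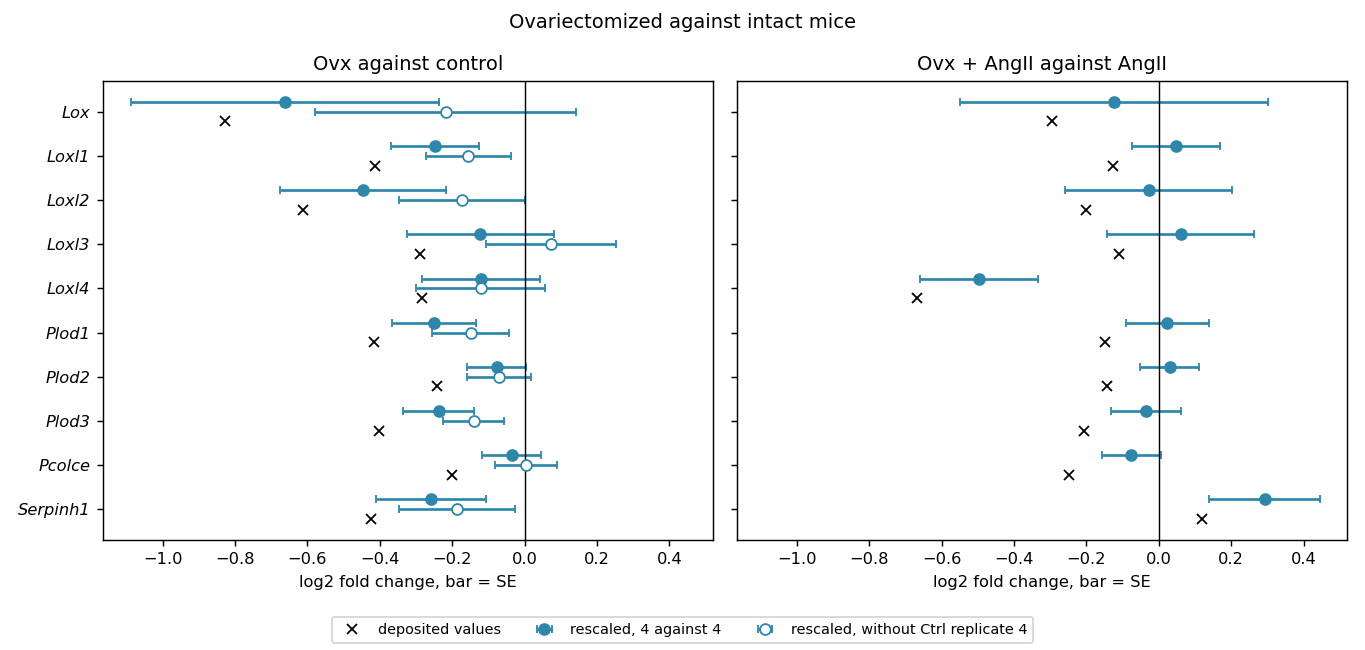
Log2 fold change (x axis) of each gene in Ovx against Ctrl mice (left) and Ovx + AngII against AngII mice (right). Filled points with standard errors are rescaled values, open points leave out Ctrl replicate 4, and crosses are deposited values. The crosses lie below the filled points throughout, and Lox moves from -0.66 to -0.22 when Ctrl replicate 4 is left out.

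The 10 genes were next set against their substrates in the same library. For each library the mean log2 value of Col1a1, Col1a2 and Col3a1, the main chains of type I and III collagen, was subtracted from that of the gene, which removes the scale of the library. All 10 differences share this one collagen mean, and they are given as a description with no test. The collagen mean itself went from 12.80 to 13.62 with AngII in mice with ovaries and from 12.38 to 13.54 in ovariectomized mice. A gene with no change would move down against collagen by that step.

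Lox moved up relative to collagen in ovariectomized mice. Its difference was -5.01, -5.27, -5.30 and -5.96 in the Ovx libraries and -4.63, -4.87, -4.32 and -4.86 in the Ovx + AngII libraries. The means differed by 0.71 on the log2 scale, with no overlap, which 0.295% of all genes tested showed in this direction. Loxl2 moved with collagen, its difference changing by 0.12 in ovariectomized mice and by 0.05 in mice with ovaries, with overlap in both. Loxl3 changed by -0.29 with overlap and Loxl1 by -0.25 without.

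The other genes stood lower against collagen with AngII in ovariectomized mice, without overlap of the groups. With Loxl1 these were 7 of the 10 genes, against 89.3% of all genes tested, since the collagen mean itself was higher by 1.16. The change was -0.57 for Serpinh1, -0.66 for Plod1, -0.74 for Pcolce, -0.89 for Plod2, -0.92 for Plod3 and -1.12 for Loxl4. For Serpinh1 the difference was 0.02, -0.11, -0.16 and -0.24 in the Ovx libraries and -0.64, -0.53, -0.88 and -0.73 in the Ovx + AngII libraries. The differences carry no correction for transcript length, so only their change between groups is read. In mice with ovaries the groups were apart for Plod3 and Serpinh1, both at -0.77, and overlapped for the others, Lox included (0.53), while 20.1% of all genes were lower without overlap. Without Ctrl replicate 4 the change was 0.84 for Lox and 0.19 for Loxl2, both with overlap, and -0.81 for Plod3 and -0.84 for Serpinh1, both apart. Between AngII-treated mice, Loxl4 stood lower in the ovariectomized group without overlap (-0.59), as 0.729% of all genes did.

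**Figure D4:**
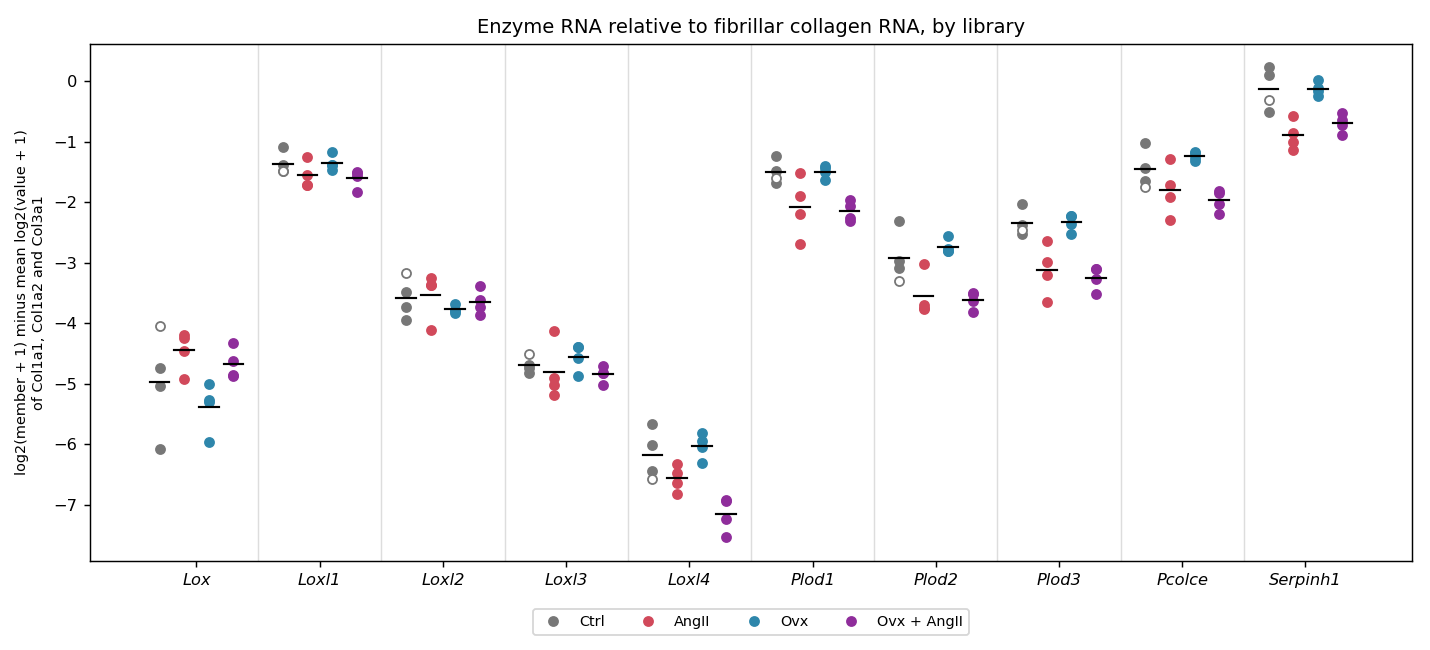
Log2 value of each gene minus the mean log2 value of Col1a1, Col1a2 and Col3a1 in the same library (y axis), by gene (x axis) and group (colour). Points are libraries, the open point is Ctrl replicate 4, and black lines are means. From Ovx to Ovx + AngII the points of Lox move up by 0.71 and those of Plod3 down by 0.92.

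The rest of the collagen pathway was read from 5 lists. They were chosen with earlier results of these data known and are given as a description. Each was read by the mean AngII response over both backgrounds, in which 9.20% of all genes tested were called higher (13.6% without Ctrl replicate 4). Of the substrates, collagens and elastin, 8 of the 9 tested rose and none fell, with a median of 1.03 on the log2 scale. Col5a2 (1.04, adjusted p = 7.07e-05), Col1a2 (0.98, adjusted p = 7.37e-05) and the basement membrane chain Col4a1 (1.13, adjusted p = 0.000135) had the smallest p-values. Of the partners of lysyl oxidases in the matrix, 4 of 8 rose, with a median of 0.47, and 5 without Ctrl replicate 4. They included Mfap4, a microfibril-associated protein (1.15, adjusted p = 8.19e-05), fibronectin Fn1 (0.70, adjusted p = 0.000312) and Fbln5, an elastic fibre protein that binds Loxl1 (0.53, adjusted p = 0.0129).

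Of 6 enzymes and enhancers acting on the propeptides, beside Pcolce, 4 rose and none fell, with a median of 0.29, and 3 rose without Ctrl replicate 4. Within mice with ovaries 4 of them passed (median 0.43), against 1.68% of all genes called higher. Within ovariectomized mice 1 did (median 0.14), against 5.83%, and the difference between these responses passed for none. Adamts2, the N-propeptidase, rose by 0.83 (adjusted p = 0.000312), Bmp1, the C-propeptidase, by 0.35 (adjusted p = 0.000622), and Pcolce2, a second enhancer, by 0.38 (adjusted p = 0.00344). Among ER hydroxylases and chaperones, 6 of 15 rose with a median of 0.12, led by the prolyl 3-hydroxylases P3h1 (0.25, adjusted p = 0.00427) and P3h2 (0.65, adjusted p = 0.00559) and the cyclophilin Ppib (0.20, adjusted p = 0.00713). Of the 15 genes 3 lay below 0 and none of them passed, the lowest being P3h4 at -0.24 (adjusted p = 0.0682). Without Ctrl replicate 4, P3h4 fell by 0.32 (adjusted p = 0.00105). Among genes of procollagen secretion, 2 of 10 rose with a median of 0.05, the transcription factor Creb3l1 (0.80, adjusted p = 0.000672) and the coat GTPase Sar1a (0.15, adjusted p = 0.0263). The median of all genes tested was -0.01.

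**Figure D5:**
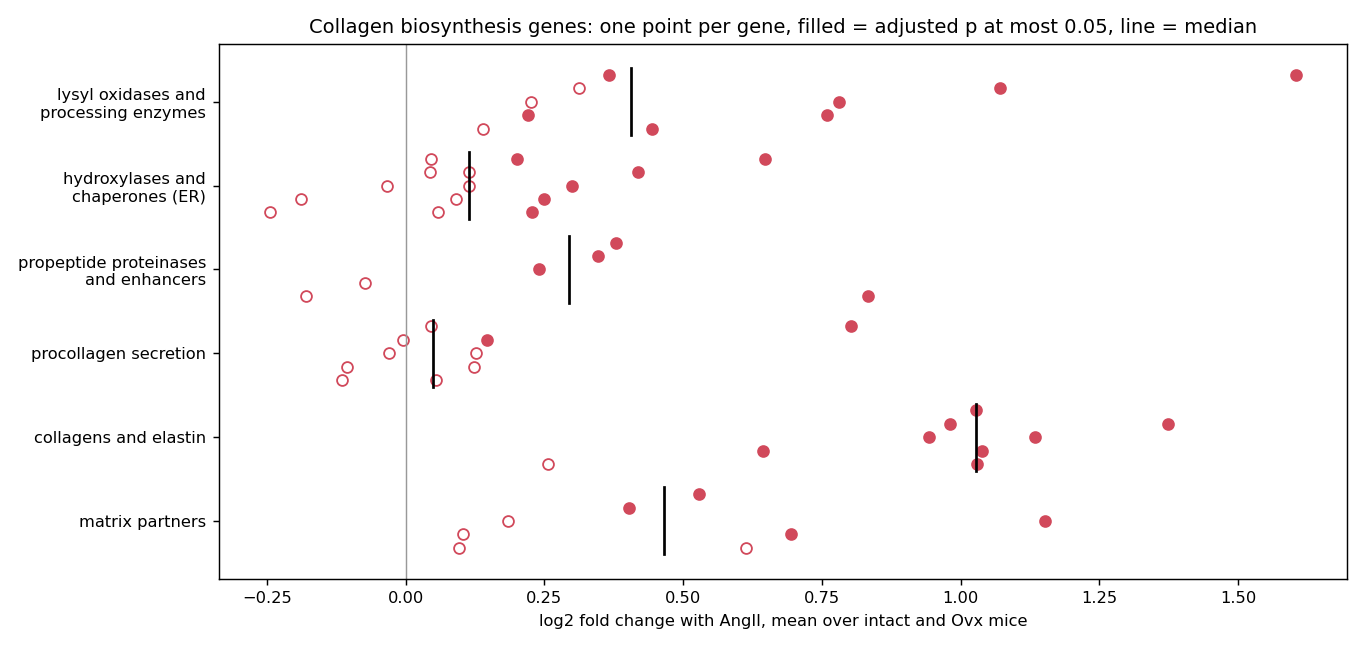
Mean log2 fold change with AngII over both backgrounds (x axis) for the 10 genes and 5 lists of the collagen pathway (rows). Points are genes, filled where the test was passed, and black lines are medians. The medians run from 0.05 for procollagen secretion to 1.03 for collagens and elastin, with the 10 genes at 0.41.

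Cell type markers moved unevenly with AngII. Beside the 9.20% of all genes called higher, 1 of 8 fibroblast markers (Pi16) rose in the mean response, with a median of 0.01. Their summed level overlapped between groups (85056 to 146130 in Ctrl, 107692 to 147608 in AngII, 116365 to 133477 in Ovx and 98892 to 139462 in Ovx + AngII libraries). Of 8 myofibroblast markers, 6 rose with a median of 0.92, and their sum was 4706 to 4971 in Ovx and 7518 to 11017 in Ovx + AngII libraries, without overlap. In mice with ovaries the myofibroblast sums overlapped, at 4917 to 9789 in Ctrl and 6806 to 12184 in AngII libraries, where the overlap came from Ctrl replicate 4 alone, the other controls lying at 4917 to 6228. Of the 8 markers each, 5 of smooth muscle and pericytes, 4 of endothelium and 0 of macrophages rose. Without Ctrl replicate 4, 13.6% of all genes were called higher. The markers called higher then became 7 of myofibroblasts, 5 of smooth muscle and pericytes, 5 of endothelium and 1 of macrophages. The macrophage median went from 0.07 to 0.23. Of the other lists, 2 of 8 atrial cardiomyocyte, 1 of 2 ventricular cardiomyocyte and 1 of 6 epicardial and mesothelial markers rose. Of the adipocyte markers 1 of 4 fell, while 1205 of the 14261 genes tested were called lower. Their part in the rises of Lox, Loxl1, Loxl2, Loxl3, Plod1, Plod2 and Pcolce was not tested.

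The genes nearest in pattern over the 16 libraries were listed by Pearson r of log2 rescaled values, 3 for each gene, as a description over libraries that share the same groups. For Lox they were Fstl1, Arf4 and Cdkn1a (0.96 each), and for Loxl1 they were Tuba1a (0.98), Frzb and Col1a2 (0.97 each). Loxl2 was nearest to Col5a1, Meox1 and Tgm2 (0.97 each), and Loxl3 to Bcl2, Calhm5 (0.95 each) and Arhgef12 (0.93). Loxl4 had the lowest values, with Angptl7 (0.85), Chst12 (0.81) and Tmx1 (0.80). Among the hydroxylases, Plod1 was nearest to Tgm2 (0.97), Zdhhc9 (0.96) and Rapgef1 (0.95), Plod2 to Tagln (0.93), Upf3a and Uchl1 (0.89 each), and Plod3 to Serpina3n, Ube2f and Zbtb7b (0.91 each). Pcolce was nearest to Col5a1 (0.95), Ppic and Col8a1 (0.94 each), and Serpinh1 to 2310022B05Rik (0.92), Mprip and Stox2 (0.90 each). Collagen genes thus appeared for Loxl1, Loxl2 and Pcolce.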

How the data were processed

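RNA of the LA was sequenced as 16 stranded mRNA libraries, 4 in each of 4 groups. Groups follow the labels, which give no batch or pairing, and replicate numbers follow accession order. The authors used STAR, mm10, Salmon and DESeq2 (BaseSpace), with versions not given in the sources used here. Each deposited value is a signal, the read count of a gene over the size factor the authors gave its library. Of these, 77.1% to 90.7% of low values lay within 0.1 of whole multiples of 1 read, and tests for raw counts were not applied. Of 24972 rows, 14 symbols turned into dates were left out. Genes with a mean of at least 10 (14261) were fitted as log2(value + 1) with limma 3.58.1 in R 4.3.3 (4 group means over all libraries, trended eBayes, two-sided, Benjamini-Hochberg), which understates changes of low genes. AngII comparisons and the interaction used deposited values, and comparisons of Ovx with intact mice used median-of-ratios rescaled values (factors 1.05 to 1.06 and 0.941 to 0.946). The second threshold, a log2 fold change of 1, is that of the study. The genes, lists and motifs were chosen with earlier results of these data known. From each pathway list up to 3 genes with the smallest p in the mean AngII comparison were named, with any passing against its direction. Exon lengths and positions are from the GENCODE annotation of GRCm38. Whether counting used strand is not given in the sources used here, so reads in exons shared with Htra2, Znhit1, Fbxo24 or predicted genes (at Lox, Loxl2, Plod2 and Pcolce) may be split. Libraries are separate samples by label, and p-values measure the spread between them. Alternatives were pseudocounts of 0.5 and 5, a minimum mean of 50 or none, other scales, fits of the compared groups alone, array weights, robust eBayes and each library left out.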

Additional observations from a re-analysis of the deposited data

Results flagged for a closer look

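Of 108 groups of 4 libraries examined, 7 had 1 library far from the other 3, where chance gives about 1 in 20, or 5.4. Lox in Ovx + AngII mice reached 719 normalised read counts in replicate 3, against 374 to 427 in the other libraries. Relative to collagen, Loxl2 was at -4.12 in AngII replicate 1 against -3.38 to -3.25 in the others. Plod2 relative to collagen was at -3.02 in AngII replicate 2 against -3.77 to -3.69, and at -2.55 in Ovx replicate 2 against -2.81 to -2.77. The collagen mean that was subtracted was the highest of its group in AngII replicate 1 (14.04). It was the lowest of its group in AngII replicate 2 (13.07) and in Ovx replicate 2 (12.27). Erythroid markers summed to 113022 in Ctrl replicate 4 (6991 to 24018 in the other controls), to 171483 in 1 AngII library (17312 to 42688 in the others) and to 17251 in 1 Ovx + AngII library (11195 to 12113 in the others).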

How the results depend on the processing

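For mice with ovaries, the number of genes past the test with AngII was 2 of 10, 5 with array weights, 0 in a fit of those 8 libraries alone, 0 when a log2 fold change of 1 was also required, and 1 to 5 with 1 library left out, 5 without Ctrl replicate 4 and 1 without Ctrl replicate 1 or AngII replicate 3. For ovariectomized mice the 8 genes became 2 with the required fold change and 5 to 8 with 1 library left out, 5 without Ovx + AngII replicate 3, and for the mean of both backgrounds the 7 became 2 and 7 to 9. Single calls near the threshold also changed: in ovariectomized mice Plod2 was lost with no filter (adjusted p = 0.0513, limma) and upper-quartile values (0.0625), and Plod3 was gained with array weights (0.0257) and in the fit of these groups alone (0.0193), while in mice with ovaries Loxl2 was gained at a minimum mean of 50 (0.0497) and with upper-quartile values (0.0487). For Ovx against Ctrl mice the count of 0 became 3 on deposited values. Values near 0 changed sign: with array weights Loxl3 in Ovx against Ctrl mice (0.045) and Plod1 in Ovx + AngII against AngII mice (-0.0058), and on deposited values Loxl1 (-0.13), Loxl3 (-0.11), Plod1 (-0.15) and Plod2 (-0.14) in the latter comparison. The causes were not tested, apart from the shift of -0.17 that deposited values carry between the sides. Of the 520 log2 fold changes under other settings, 498 kept their direction and side of the threshold, and so did 905 of 960 with 1 library left out. With 1 library left out, the values that crossed 0 ranged, for Ovx + AngII against AngII mice, over -0.46 to 0.014 for Lox, -0.030 to 0.13 for Loxl1, -0.16 to 0.072 for Loxl2, -0.076 to 0.16 for Loxl3, -0.044 to 0.079 for Plod1, -0.036 to 0.097 for Plod2 and -0.076 to 0.0065 for Plod3. For Ovx against Ctrl mice they were -0.32 to 0.073 for Loxl3 and -0.086 to 0.0040 for Pcolce, and for the difference between responses -0.017 to 0.38 for Loxl3 and -0.12 to 0.0092 for Pcolce. For AngII in ovariectomized mice Loxl4 gave -0.057 to 0.099, and in mice with ovaries Plod3 gave -0.053 to 0.14 and Serpinh1 -0.082 to 0.20. Over all genes, those past the test with AngII numbered 419 in mice with ovaries (2 in the fit of these groups alone, 980 with array weights, 92 to 1475 with 1 library left out), 1446 in ovariectomized mice (2477, 2863 and as few as 708, without Ovx + AngII replicate 3) and 2517 over both (3800 with array weights), and for Ovx against Ctrl mice 0 (1380 on deposited values) and for Ovx + AngII against AngII mice 0 (108). No paired analysis was done, since the labels give separate samples in each group and no pairing between groups.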
